A study of Mus musculus with 8 samples.

Results

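The genes described here are 8 imprinted genes that, for the most part, lie outside the large imprinted clusters: Zdbf2, Plagl1, Peg3, Grb10, Igf2r, Impact, Gab1 and Slc38a4. They were taken by symbol from the 55422 features counted in these libraries, and each symbol matched 1 feature. The list was chosen from gene names with earlier results of these same libraries known. Which measured values guided the choice is not recorded, so the adjusted p-values given below place each gene among all genes of a fit and are not independent evidence about the list.

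The cells came from chimaeric mouse embryos made by injecting Tet-TKO ES cells, which lack Tet1, Tet2 and Tet3, into wild-type C57BL/6J blastocysts. The ES cells carried an H2B-tdTomato reporter driven by the CAG promoter, had a mixed C57BL/6J-129Sv background and were kept in 2i LIF medium. Embryos were pooled and dissociated, and tdTomato+ cells (Tet-TKO) were sorted from tdTomato- cells (WT host) for 10x 3′ single-cell RNA-seq, giving 4 tdTomato+ and 2 tdTomato- libraries at E8.5 and a single library per genotype at E7.5. Genotype, strain background and passage through ES cell culture go together in every library and cannot be told apart, and the single ES cell line stands for the genotype.

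Imprinted genes are transcribed mainly from the copy of one parent. At most of them, which copy is silent follows from DNA methylation that an imprinting control region receives in the egg or the sperm. This methylation is then kept through embryonic development with the help of the zinc-finger protein ZFP57. TET enzymes oxidise 5-methylcytosine and so take part in its removal. Zdbf2, Plagl1, Peg3, Impact and Slc38a4 are expressed from the paternal copy. Igf2r is expressed from the maternal copy, Grb10 from the maternal copy in most tissues and from the paternal copy in neurons, and Gab1 is imprinted in placental tissue, where the paternal copy is active. UMIs read at the 3′ end cannot separate the parental copies, so all values below are totals of both.

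On the mm10 assembly Zdbf2 (ENSMUSG00000027520), which encodes a zinc-finger protein, lies at chr1:63273265-63314576 on the plus strand. Plagl1 (ENSMUSG00000019817), a zinc-finger transcription factor also called Zac1, lies at chr10:13060504-13131694 on the plus strand. Peg3 (ENSMUSG00000002265), a Krüppel-type zinc-finger protein, lies at chr7:6703892-6730431 on the minus strand. Grb10 (ENSMUSG00000020176), an adaptor that restrains signalling of the insulin and IGF1 receptors, lies at chr11:11930508-12038683 on the minus strand. Igf2r (ENSMUSG00000023830), the receptor that carries IGF2 to lysosomes, lies at chr17:12682406-12769664 on the minus strand and overlaps the antisense gene Airn. Gab1 (ENSMUSG00000031714), a docking protein downstream of receptor tyrosine kinases, lies at chr8:80764438-80880519 on the minus strand, and Slc38a4 (ENSMUSG00000022464), an amino acid transporter, at chr15:96994820-97055956 on the minus strand. Impact (ENSMUSG00000024423) encodes a protein that restrains the amino acid sensor GCN2.

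Since ZFP57 binds the letters TGCCGC when the CpG in them is methylated, promoter windows of the members were searched for them on both strands. RefSeq windows of 300 bases, from 250 before to 50 after a start site (GRCm38.p6), were at hand for 7 of the 8 genes. The motif occurred in 11.6% of all 32851 windows, and among the members it occurred in 1 window each of Zdbf2, Plagl1 and Grb10. These 3 windows are shown because they are the members' only windows with a match, which is written in capitals in either orientation.
Zdbf2, chr1:63200108-63200407, plus strand: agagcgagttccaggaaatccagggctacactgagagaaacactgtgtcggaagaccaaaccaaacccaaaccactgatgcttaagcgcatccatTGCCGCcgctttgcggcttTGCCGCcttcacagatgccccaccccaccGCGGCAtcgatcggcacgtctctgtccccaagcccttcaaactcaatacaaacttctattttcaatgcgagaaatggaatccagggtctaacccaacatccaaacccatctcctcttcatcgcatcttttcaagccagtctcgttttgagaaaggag
Plagl1, chr10:13090582-13090881, plus strand: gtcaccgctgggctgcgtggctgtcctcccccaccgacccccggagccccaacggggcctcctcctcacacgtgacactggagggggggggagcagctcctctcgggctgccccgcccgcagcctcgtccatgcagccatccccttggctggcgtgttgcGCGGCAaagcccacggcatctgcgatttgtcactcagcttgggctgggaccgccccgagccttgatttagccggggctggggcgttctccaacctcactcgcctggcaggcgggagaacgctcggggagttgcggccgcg
Grb10, chr11:12037371-12037670, minus strand: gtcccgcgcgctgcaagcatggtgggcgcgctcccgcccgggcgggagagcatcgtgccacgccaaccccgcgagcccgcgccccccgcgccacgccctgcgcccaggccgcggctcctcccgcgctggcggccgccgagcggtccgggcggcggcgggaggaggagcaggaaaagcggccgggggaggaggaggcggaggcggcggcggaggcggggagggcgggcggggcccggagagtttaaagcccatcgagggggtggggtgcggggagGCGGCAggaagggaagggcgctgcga
The Zdbf2 window, upstream of the annotated gene, held 3 matches and 15 CpG, against a median of 7 CpG over all windows. The Plagl1 window held 1 match and 26 CpG, and the Grb10 window 1 match and 45 CpG, more than 98.1% of all windows. The second Zdbf2 window, at chr1:63273019-63273318, held 38 CpG without a match, and the second Grb10 window, at chr11:12027922-12028221, held 9. Also without a match, the window of Igf2r held 34 CpG, that of Peg3 13, those of Gab1 28 and 26 and each of the 3 of Slc38a4 only 5. A match says where these letters stand and nothing about the binding of the protein, and methylation was not analysed here. The motif itself holds a CpG, and its share among windows of like CpG content is not given. The windows lie at start sites, and imprinting control regions were not searched as such.

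The 8 libraries held 65601218 to 136982886 UMIs each, and between 1008 and 9545 cells per library were kept. tdTomato was at 71.5 to 145 CPM (UMI counts scaled to a common library total) in Tet-TKO libraries and at 0.444 to 0.938 CPM in WT host libraries. Tet1 was at 9.92 to 20.9 CPM in E8.5 Tet-TKO and 20.4 to 22.6 CPM in WT host libraries, Tet2 at 5.55 to 10.5 against 4.63 to 4.67 CPM and Tet3 at 22.5 to 37.5 against 23.1 to 23.2 CPM, so 3′ counts of these genes do not check the genotype. Any pair of libraries shared at most 29 cell barcodes. Tet-TKO libraries 1 and 2 were alike, and so were libraries 3 and 4, with a chi-square over genes, divided by its degrees of freedom, of 14.2 and 16.1 within these pairs against 127.7 between the WT host libraries. Libraries 3 and 4 also had fewer and deeper cells, with a median of 40404 and 68931 UMIs per cell against 12178 to 18774 in the other E8.5 libraries. The study speaks of matching host embryos, but neither its methods nor the labels say which libraries came from the same pool, and p-values measure only the spread between these libraries.

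Over all kept cells of E8.5, the paternally expressed members other than Gab1 were at a higher level in Tet-TKO than in WT host cells in every library, most of all Zdbf2 and Plagl1. Gab1 was lower in every Tet-TKO library. Zdbf2 was at 81.6, 89.0, 135 and 139 CPM in Tet-TKO libraries 1 to 4 and at 25.6 and 29.4 CPM in the WT host libraries. All Tet-TKO libraries thus lay above both WT host libraries, with means of 111 ± 30.2 (SD, n = 4) and 27.5 ± 2.65 CPM (SD, n = 2). The log2 fold change was 1.91 (SE 0.21, adjusted p = 0.00389, edgeR). Plagl1 was at 51.2, 69.4, 72.4 and 84.5 CPM against 17.2 and 20.3 CPM, again without overlap, with a log2 fold change of 1.79 (SE 0.18, adjusted p = 0.00293, edgeR). These 2 of the 8 members passed both thresholds for a call (adjusted p 0.01 and a log2 fold change of 1 in either direction), as did 2.65% of all 21072 genes tested.
Impact passed the p threshold with a smaller change. It was at 79.8, 81.0, 81.4 and 85.4 CPM in Tet-TKO cells and at 44.7 and 37.1 CPM in WT host cells, which gave a log2 fold change of 0.92 (SE 0.11, adjusted p = 0.00476, edgeR), and its 4 Tet-TKO libraries differed least among themselves. The transporter Slc38a4 was at 227, 214, 153 and 152 CPM against 79.7 and 52.0 CPM, so that here libraries 1 and 2 were the higher pair (log2 fold change 1.44, SE 0.30, adjusted p = 0.0293, edgeR). Peg3 was at 756, 541, 939 and 919 CPM against 385 and 306 CPM, a log2 fold change of 1.10 with an adjusted p of 0.0192 (edgeR).
Of the maternally expressed members, Igf2r was also higher in every Tet-TKO library, at 85.7, 83.0, 112 and 115 CPM against 58.5 and 49.6 CPM (log2 fold change 0.78, adjusted p = 0.0127, edgeR). Grb10 was at 185, 186, 161 and 164 CPM against 189 and 198 CPM, which is lower in all Tet-TKO libraries but did not pass the test, with a log2 fold change of -0.23 (adjusted p = 0.365, edgeR). The placentally imprinted Gab1 was at 7.23, 7.85, 10.9 and 10.6 CPM against 15.6 and 12.6 CPM, a log2 fold change of -0.72 (adjusted p = 0.0326, edgeR). With an adjusted p of 0.05 and no minimum fold, 7 of the 8 members passed, Grb10 being the exception, beside 10.5% of all genes. The groups did not overlap for any of the 8 members, nor for 41% of all genes tested, so such a separation was common.
The share of all genes called with other sets of libraries is not given here. The 2 calls at the stricter threshold were not kept with every set of libraries. No member passed it without Tet-TKO library 3, without WT host library 1, without WT host library 2, or when Tet-TKO libraries 1 and 2 and libraries 3 and 4 were summed, while Zdbf2 kept a log2 fold change of at least 1.78 with any single library left out.

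**Figure D1:**
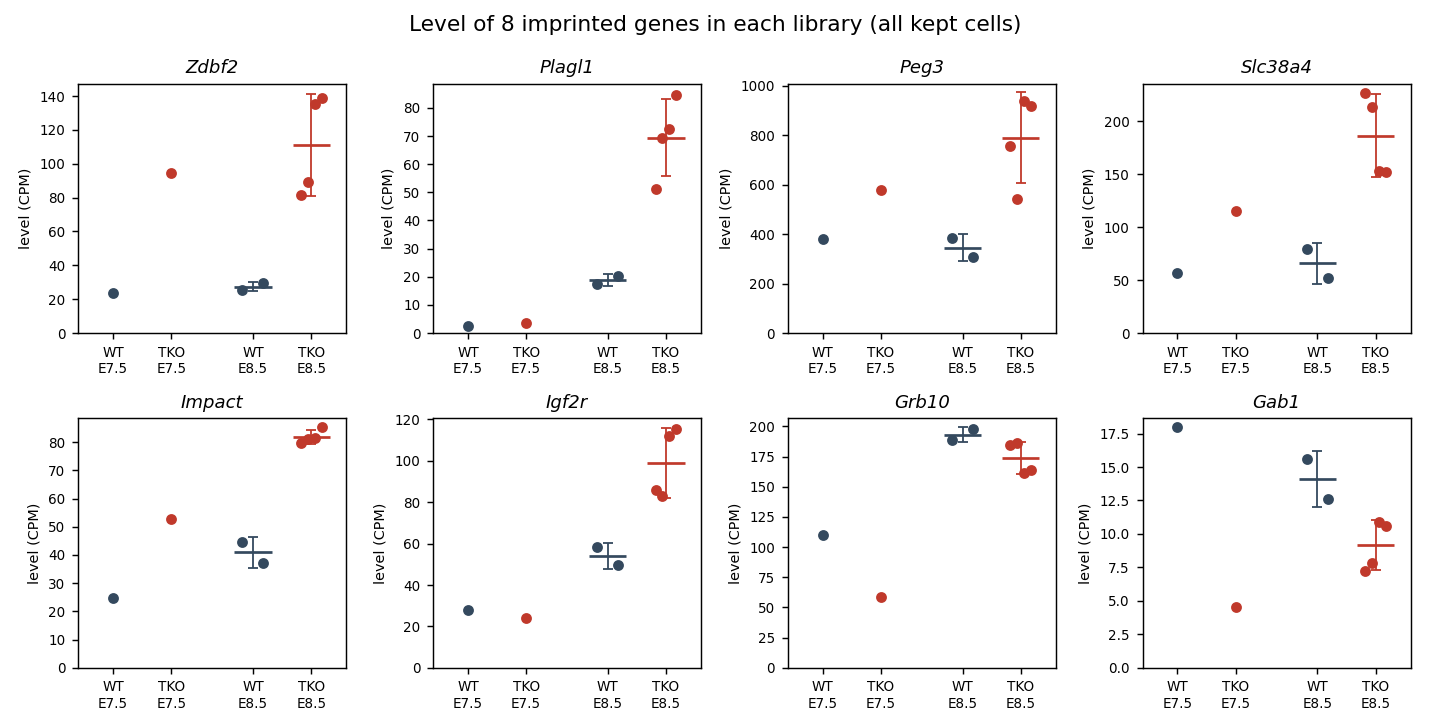
Level of each gene in CPM (linear axis from 0) in every library, over all kept cells, for WT host (dark) and Tet-TKO (red) cells at E7.5 and E8.5. Points are libraries, and at E8.5 horizontal lines are means and bars SD (n = 2 and n = 4). Zdbf2, Plagl1, Peg3, Slc38a4, Impact and Igf2r sit above both WT host libraries in all 4 E8.5 Tet-TKO libraries, and Grb10 and Gab1 sit below. Of all genes tested, 41% separated in this way.

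Sums over all cells also follow the make-up of the cells, and in such sums fewer cells of a type and less RNA per cell cannot be told apart. Markers of other cell types moved with the genotype. The 8 erythroid markers summed to 604 to 1690 CPM in E8.5 Tet-TKO libraries and to 19634 to 48040 CPM in WT host libraries. The 8 yolk sac endoderm markers summed to 14.2 to 87.1 CPM against 855 to 2943 CPM. All markers of both lists were detected in every library. Trophoblast markers summed to 52.5 to 117 CPM and 55.1 to 98.7 CPM, but 2 of the 8, Elf5 and Rhox6 (named after their values had been seen), were called lower in Tet-TKO cells (log2 fold changes -5.31 and -3.54), the median of the list was -0.95, and extraembryonic ectoderm-like cells numbered 0 to 2 per Tet-TKO library and 152 and 53 in the WT host libraries. Without erythroid-like and extraembryonic-like classes the log2 fold change of Zdbf2 was 1.66 and that of Plagl1 1.53, both still past the threshold. Cluster 12, unnamed but nearest to erythroid cells, was kept in. Gab1, whose WT host level was highest in visceral endoderm-like and extraembryonic ectoderm-like cells, moved from -0.72 to -0.21 (adjusted p = 0.463, edgeR). Grb10 moved the other way, to -0.37, and Slc38a4 to 1.23 with an adjusted p of 0.0582 (edgeR), so that Gab1 and Slc38a4 no longer passed 0.05.

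To give the named and unnamed classes the same weight in every library, the CPM of a gene was averaged over the 26 cell classes with at least 10 cells in all E8.5 libraries. Transcripts of other cell types still differed on this scale. Of the yolk sac endoderm markers 3 could be tested, with a median log2 difference of -2.46 and 2 lower at an adjusted p of 0.05, and of the erythroid markers 6, with a median of -2.16 and 1 lower (limma). Their part in the results was not tested. With equal weights Zdbf2 was at 92.8, 95.9, 141 and 140 CPM in Tet-TKO cells and 37.9 and 42.8 CPM in WT host cells. The means of 117 ± 26.6 (SD, n = 4) and 40.4 ± 3.47 CPM (SD, n = 2) differed 2.91-fold, and the log2 difference was 1.49 (SE 0.21, adjusted p = 0.0236, limma). Tet-TKO libraries 3 and 4 were 3.48-fold and libraries 1 and 2 2.34-fold above the WT mean. Plagl1 was at 57.1, 69.5, 79.4 and 91.7 CPM against 27.1 and 35.5 CPM, a log2 difference of 1.21 (SE 0.20, adjusted p = 0.0435, limma).
Slc38a4 and Impact had smaller differences with little spread. Slc38a4 was at 162, 158, 161 and 164 CPM against 101 and 83.5 CPM (log2 difference 0.81, SE 0.09, adjusted p = 0.0112, limma). With equal weights, its 4 Tet-TKO libraries thus lay within a few CPM of each other, where the sums over all cells had set libraries 1 and 2 apart. Impact was at 76.9, 78.8, 85.5 and 88.9 CPM against 50.2 and 49.5 CPM, a log2 difference of 0.71 (SE 0.08, adjusted p = 0.0155, limma).
Grb10 was the one member that was lower in all Tet-TKO libraries on this scale, at 182, 188, 168 and 177 CPM against 239 and 265 CPM. The log2 difference was -0.49 (SE 0.08, adjusted p = 0.0371, limma), or 0.709 of the WT mean.
Peg3 and Igf2r split by pair of libraries. Peg3 was at 702 and 522 CPM in Tet-TKO libraries 1 and 2, at 967 and 984 CPM in libraries 3 and 4, and at 472 and 477 CPM in WT host cells (log2 difference 0.69, adjusted p = 0.341, limma). Igf2r was at 79.7 and 77.3 CPM in Tet-TKO libraries 1 and 2, close to the WT host values of 70.7 and 75.7 CPM, and at 120 and 129 CPM in libraries 3 and 4 (log2 difference 0.43, adjusted p = 0.530, limma). Gab1 was at 7.15 and 8.29 CPM in libraries 1 and 2, at 12.1 and 13.2 CPM in libraries 3 and 4 and between them, at 8.49 and 9.57 CPM, in WT host cells. Depth per cell, which also differs between these pairs, was not tested for its part in this split.
None of the 8 members passed an adjusted p of 0.01 and a log2 difference of 1 in this test, where 0.431% of the 9504 genes did, while 6 had an unadjusted p under 0.05, as did 12.3% of all genes (limma). With an adjusted p of 0.05 and no minimum, 5 members passed (Zdbf2, Plagl1, Slc38a4, Impact and Grb10), against 1.87% of all genes. This count was 4 without Tet-TKO library 1, 3 without library 2, 1 without library 3 and 3 without library 4, 1 without WT host library 1 and 0 without WT host library 2, and 0 when the like Tet-TKO libraries were summed. Plagl1 and Grb10 were lost, leaving 3, with clustering at Leiden resolution 1, with at least 30 cells per sum and without the filter on low values. The shares of all genes under these other settings are not given here. Slc38a4 was the member that passed without Tet-TKO library 3 and without WT host library 1. The groups did not overlap for 7 of the 8 members, all but Gab1, and for 29.1% of all genes.

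**Figure D2:**
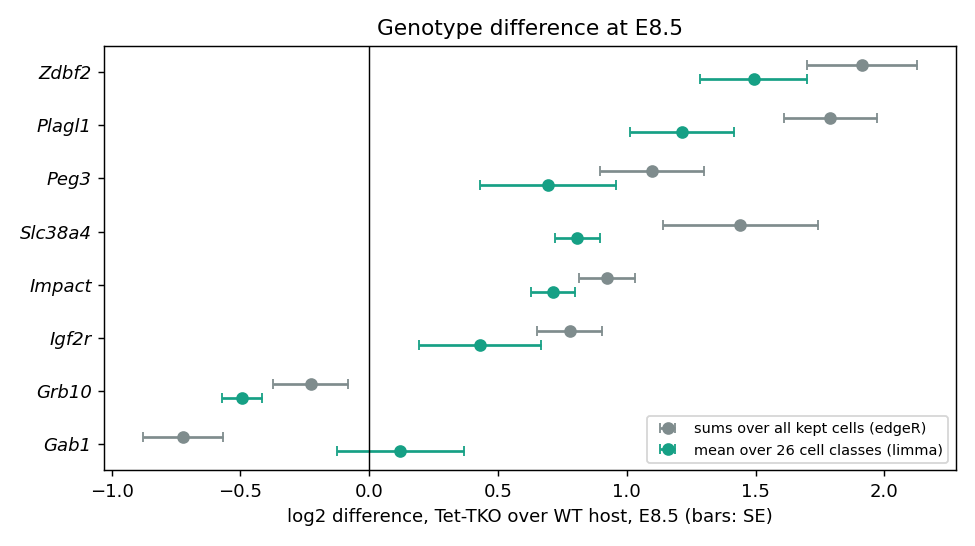
Log2 difference of Tet-TKO over WT host cells at E8.5 (x axis) for each gene, from sums over all kept cells (grey, edgeR) and from means over 26 cell classes (green, limma), with SE as bars. Each paternally expressed gene but Gab1 lies to the right of 0 on both scales, and Gab1 moves from -0.72 to 0.12 between them.

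Cell classes were next taken one by one, each library giving 1 sum per class. In 31 classes with enough cells, 238 pairs of a member and a class were tested, and 25 of them (10.5%) passed an adjusted p of 0.01 and a log2 fold change of 1. Of these, 24 were higher and 1 was lower in Tet-TKO cells, beside 0.557% of the 304967 pairs of all genes. With an adjusted p of 0.05 and no minimum fold, 63 pairs passed (26.5%), 56 of them higher, beside 1.43% of all pairs. Pairs of one gene share libraries and are not independent. The share of all genes with the same sign in every class is not given here. The share of all pairs called with a library left out is not given here. The 25 calls became 8 without WT host library 1 and 6 without WT host library 2, and 20 to 27 without any one Tet-TKO library.
Zdbf2 had a positive log2 fold change in 30 of 30 classes, with a median of 1.61. The change ranged from 0.62 in mesenchyme-like to 2.01 in erythroid-like cells, where only 2 Tet-TKO libraries had enough cells. Zdbf2 was called in 16 classes. Without WT host library 1 it was called in 2 and without WT host library 2 in 3. The called class with the largest change was the haematoendothelial progenitor-like one, with 120, 120, 184 and 133 CPM in Tet-TKO libraries against 35.8 and 33.6 CPM (log2 fold change 1.97, SE 0.19, adjusted p = 0.000520, edgeR). In mesenchyme-like cells the genotypes overlapped, at 82.6, 100.1, 165 and 157 CPM against 65.3 and 91.1 CPM. This was also the class with the highest Zdbf2 level in WT host cells.
Plagl1 was higher in 27 of 27 classes, with a median of 1.39, and was called in 5, but in 1 without WT host library 1 and 0 without WT host library 2. The 5 were the allantois-like, cardiomyocyte-like and endothelium-like classes, cluster 14 (led by Alx1, Sfrp5 and Npr3) and cluster 15 (led by Lhx1, Colec10 and Hlx). Cluster 15 had the largest called change, with 84.3, 125, 114 and 113 CPM against 28.6 and 31.2 CPM (log2 fold change 1.84, SE 0.22, adjusted p = 0.00374, edgeR). The largest fitted change of Plagl1, 2.57 in hindbrain-like cells, came from low and scattered values of 7.44, 10.9, 25.8 and 52.2 CPM against 3.35 and 4.36 CPM (adjusted p = 0.210, edgeR). In mesenchyme-like cells, the class with the highest WT level, it was at 125 to 278 CPM against 116 and 190 CPM, with overlap. Surface ectoderm-like cells overlapped too, at 26.3, 24.2, 4.46 and 9.12 CPM against 6.36 and 9.05 CPM. All Tet-TKO libraries with enough cells lay above the WT host libraries in 20 of the 27 classes. The share of all genes that separated within a class is not given here, and over all kept cells 41% did, in either direction.
Slc38a4 was higher in 31 of 31 classes, with a median of 0.79, and was called in the haematoendothelial progenitor-like class and in cluster 12 (led by Hbb-bh0, Car1 and Gata1), and in 1 class without Tet-TKO library 3. In cluster 12 it was at 46.4, 46.1 and 43.0 CPM in the 3 Tet-TKO libraries with enough cells and at 12.7 and 13.9 CPM in WT host cells (log2 fold change 1.70, SE 0.15, adjusted p = 0.000156, edgeR). The same cluster held the only call of Gab1, in the opposite direction, with 3.80, 2.59 and 2.35 CPM against 18.7 and 18.2 CPM (log2 fold change -2.75, SE 0.29, adjusted p = 0.000308, edgeR). Without Tet-TKO library 2 Gab1 had 0 calls. It had a positive change in 13 classes and a negative one in 15.
Impact was higher in 30 of 30 classes within a narrow range, with a median of 0.75. The range ran from 0.38 in gut-like to 1.16 in erythroid-like cells, the latter with only 2 Tet-TKO libraries. Impact passed the adjusted p of 0.05 in 10 classes and the stricter threshold in none. In the allantois-like class it was at 111, 115, 123 and 127 CPM against 69.9 and 64.8 CPM.
Peg3 was called only in the endothelium-like class, at 533, 439, 551 and 667 CPM against 268 and 244 CPM (log2 fold change 1.08, SE 0.17, adjusted p = 0.00602, edgeR). Its change ranged from 0.01 in NMP and caudal epiblast-like cells to 1.54 in cluster 10, an unnamed cluster led by Mir6236 and Gm42418 with low UMI counts. Peg3 was called in 0 classes without Tet-TKO library 3, Tet-TKO library 4 or WT host library 2 and in 3 without Tet-TKO library 2.
Igf2r was called in none, with changes from -0.49 in notochord-like to 0.99 in endothelium-like cells. In the latter it was at 68.0, 66.0, 84.6 and 90.9 CPM against 33.1 and 43.4 CPM (adjusted p = 0.0138, edgeR). In gut-like cells all Tet-TKO libraries lay below the WT host libraries, at 60.1 to 74.3 CPM against 79.6 and 81.3 CPM, without passing the test.
Grb10 was lower in 27 of 31 classes, with a median of -0.49, and passed an adjusted p of 0.05 in 5, each with a log2 fold change under 1 in size. The largest negative change was in NMP and caudal epiblast-like cells, at 108, 112, 122 and 101 CPM against 200 and 239 CPM (log2 fold change -0.96, SE 0.12, adjusted p = 0.00627, edgeR). In hindbrain-like cells it was at 127, 147, 137 and 145 CPM against 247 and 237 CPM (adjusted p = 0.0145, edgeR). In cluster 11, led by the blood genes Rab27b, Myb and Fcer1g, the values lay the other way, at 81.3, 108, 93.4 and 122 CPM against 70.8 and 77.5 CPM.

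**Figure D3:**
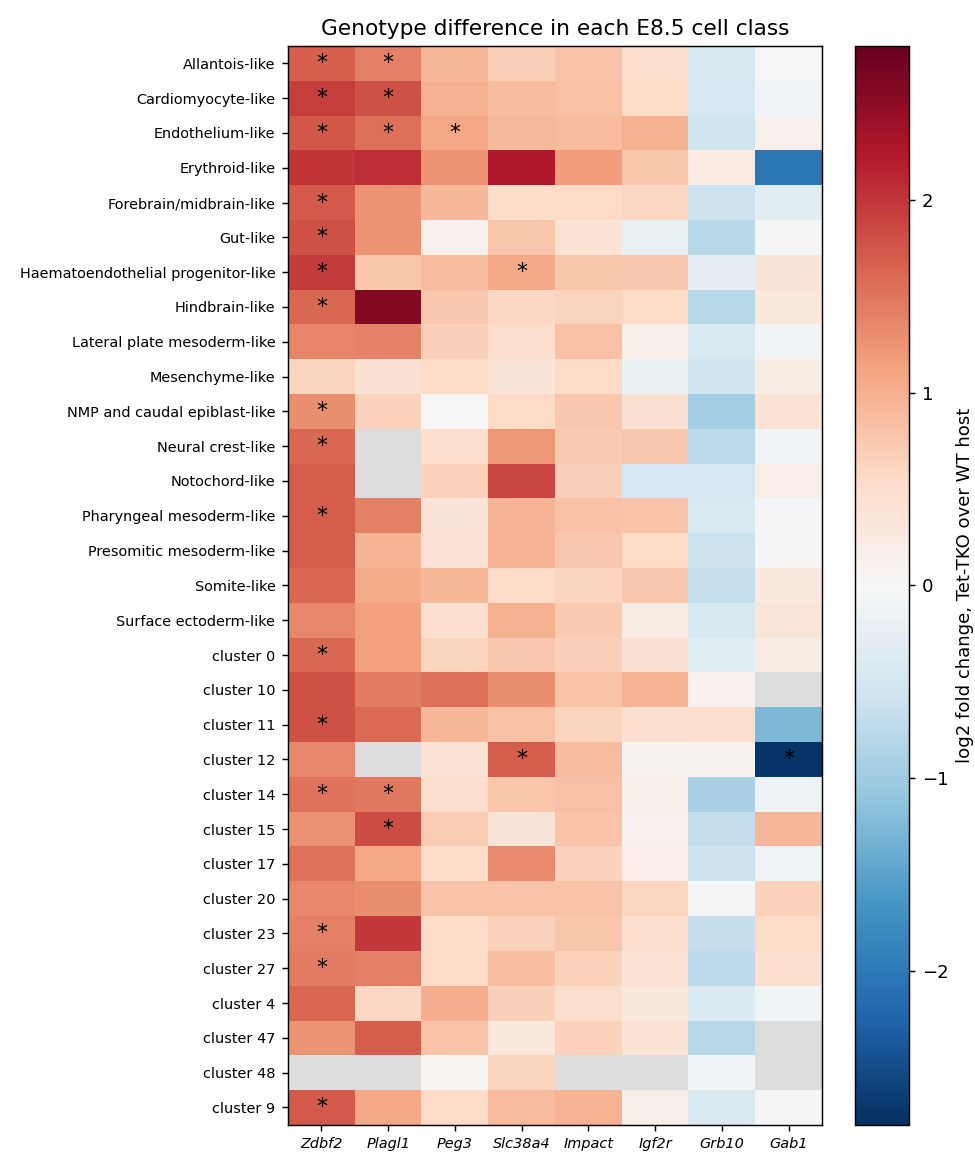
Log2 fold change of Tet-TKO over WT host cells (colour) for each gene (columns) in each E8.5 cell class (rows), from sums per class and library. Stars mark an adjusted p of 0.01 with a log2 fold change of 1, and grey cells were not tested. The column of Zdbf2 is red in all 30 classes tested, that of Grb10 is blue in 27 of 31, and the deepest blue is Gab1 in cluster 12.

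Whether the genotype difference varied between classes was tested in 1 fit over the 26 classes with sums in all E8.5 libraries. It varied for 4 of the 8 members, Zdbf2 (adjusted p = 0.00194), Peg3 (0.000701), Grb10 (0.000269) and Igf2r (0.000137, edgeR), beside 9.76% of the 14885 genes tested. It did not pass for Plagl1 (adjusted p = 0.281), Gab1 (0.348), Slc38a4 (0.126) and Impact (0.761, edgeR), which does not show that their difference was the same everywhere. The share of all genes that passed with a library left out is not given here. Only 1 member passed without WT host library 1 and 0 passed without WT host library 2.

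In WT host cells, each member had its own distribution over the 33 E8.5 classes with at least 10 cells in both libraries. Zdbf2 was highest in mesenchyme-like cells (65.3 and 91.1 CPM in the 2 libraries) and in the neural clusters 27, 23 and hindbrain-like cells. It was lowest in extraembryonic ectoderm-like cells (1.82 and 1.93 CPM). Plagl1 was highest in mesenchyme-like (116 and 190 CPM), lateral plate mesoderm-like and haematoendothelial progenitor-like cells and lowest in cluster 12 (0.292 and 1.04 CPM). Peg3 was highest in lateral plate mesoderm-like cells (1182 and 1385 CPM) and low in neural and blood clusters, with 50.9 and 53.1 CPM in forebrain/midbrain-like and 23.7 and 23.1 CPM in cluster 11.
Slc38a4 was highest in cluster 0, led by Vcam1, Nxf7 and Twist2 (397 and 387 CPM), and in allantois-like cells (411 and 330 CPM), and lowest in visceral endoderm-like cells (10.0 and 5.66 CPM). Igf2r shared the first of these (202 and 224 CPM in cluster 0) and was lowest in cluster 12 (8.90 and 10.7 CPM). Impact varied least, from 85.9 and 87.4 CPM in mesenchyme-like to 11.5 and 11.6 CPM in extraembryonic ectoderm-like cells, a 7.5-fold range. Grb10 was highest in cluster 47, led by Calca, Nkx2-9 and Nkx6-1 (408 and 527 CPM), and in notochord-like cells (328 and 471 CPM), and lowest in visceral endoderm-like cells (40.2 and 55.4 CPM). Gab1 had the reverse place for that class, being highest in visceral endoderm-like (45.8 and 40.6 CPM) and extraembryonic ectoderm-like cells (37.2 and 36.7 CPM). It had no UMI in cluster 48, but that cluster held only 15 and 23 WT host cells. The upper 95% counting limits there were 53.1 and 43.5 CPM, so this value does not place the lowest Gab1 level. In the order of levels, most neighbours could not be separated by the 2 libraries. Of 32 neighbouring pairs, the values overlapped in 28 for Zdbf2 and Impact, in 27 for Grb10 and Gab1, in 25 for Igf2r and Slc38a4, in 23 for Plagl1 and in 22 for Peg3.
Genes with the most similar distribution over these 33 classes, by Pearson r of log2(CPM + 1) among 5490 genes, were Ing1 (0.90), Armcx2 (0.90) and Dpysl2 (0.89) for Zdbf2, and Tmem108 (0.82), Asb4 (0.81) and Klhdc10 (0.81) for Plagl1. For Peg3 they were Csrp2 (0.90), the member Igf2r (0.88) and Uaca (0.88). For Igf2r they were Gata6 (0.91), Capn6 (0.90) and the imprinted Dlk1 (0.90), and for Slc38a4 Smad7 (0.92), Ppp1r14a (0.89) and Dok4 (0.88). Grb10 was closest to Tut4 (0.88), Ccni (0.88) and Mboat2 (0.86), Impact to Prkaca (0.81), Amer1 (0.81) and Tceal8 (0.78), and Gab1 to Cyb5r1 (0.82), Riok3 (0.82) and Gmfb (0.81). The classes share libraries, so these values are descriptions.

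**Figure D4:**
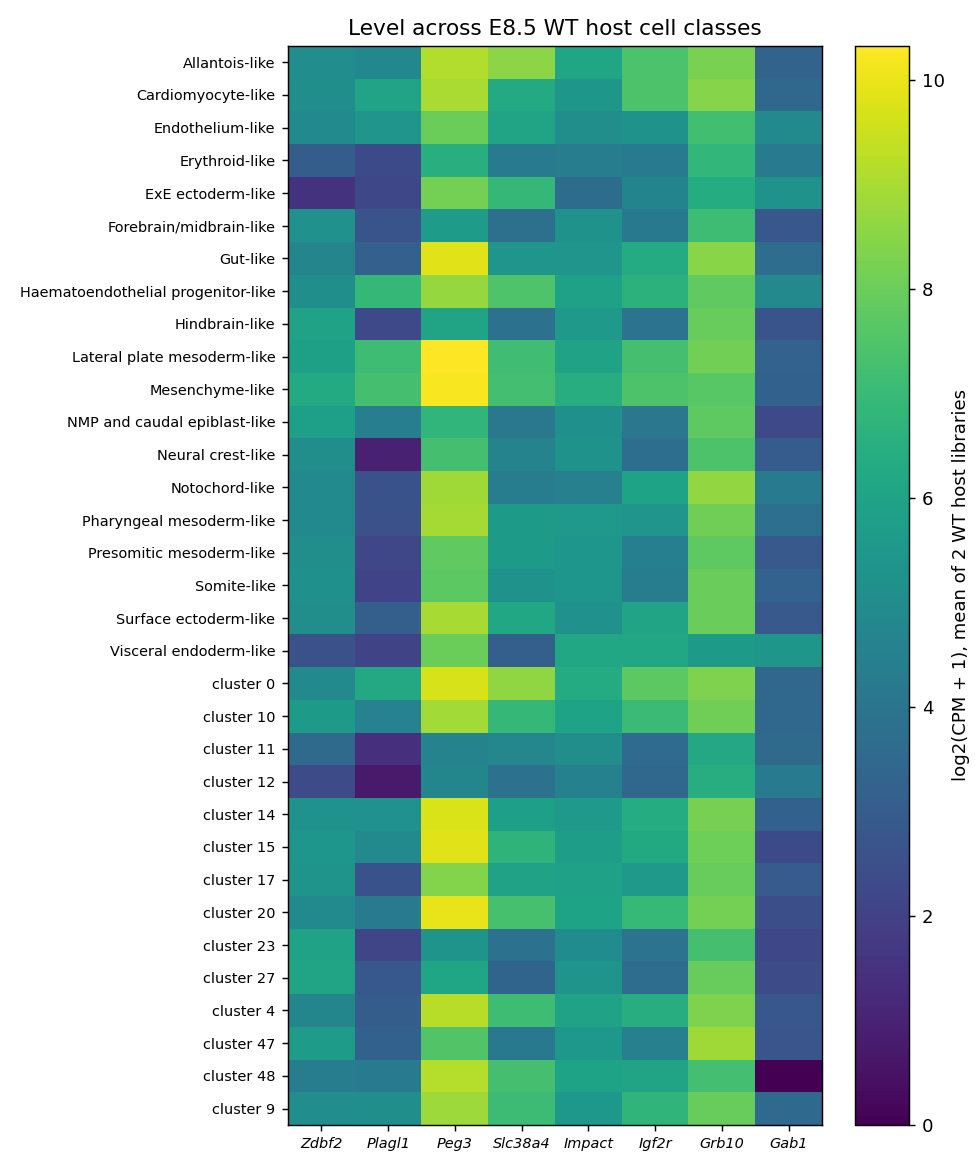
Mean level of the 2 E8.5 WT host libraries as log2(CPM + 1) (colour) for each gene (columns) in each of 33 cell classes (rows). Peg3 is bright in lateral plate mesoderm-like, mesenchyme-like and gut-like classes and dark in neural and blood clusters, with presomitic mesoderm-like and somite-like classes in between. Gab1 is brightest in visceral endoderm-like cells.

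The E7.5 values come from a single library per genotype, so they have no replicate check and no test was made. Intervals are exact, at 95%, and cover counting error only. Zdbf2 was at 94.4 CPM (92.6 to 96.3) in the Tet-TKO library and 23.6 CPM (22.7 to 24.5) in the WT host library, a log2 ratio of 2.0, and of 1.45 without extraembryonic-like cells. Of the 25 classes with at least 10 cells in both libraries, all had the higher Zdbf2 level in Tet-TKO cells, and in 23 the interval of the ratio lay above 0. The largest ratio, 3.52, was in extraembryonic ectoderm-like cells, from 17 Tet-TKO cells with 12 UMIs of Zdbf2. The study reports no contribution of tdTomato+ cells to trophoblast. Whether these 17 cells were assigned correctly was not tested. The share of all genes higher in every class is not given here. Impact was at 52.9 against 24.8 CPM (log2 ratio 1.09) and Slc38a4 at 115 against 56.3 CPM (log2 ratio 1.03). Without extraembryonic-like classes these ratios were 0.82 and 1.11, and from means over the 25 classes 0.55 and 0.86. Each gene was higher in Tet-TKO cells in 23 of 25 classes, with the interval above 0 in 16 for Impact and 14 for Slc38a4.
Grb10 was at 58.8 CPM in Tet-TKO and 110 CPM in WT host cells, a log2 ratio of -0.90, and of -1.20 without extraembryonic-like cells. It was lower in 23 of 25 classes, with the interval below 0 in 21, and its mean over the classes was 58.5 against 127 CPM. Gab1 was at 4.53 against 18 CPM, a log2 ratio of -1.99 that was -0.61 without the extraembryonic-like classes. It was -0.32 when cluster 29 was also left out, an unnamed cluster nearest to visceral endoderm with 271 WT host and 4 Tet-TKO cells, where Gab1 was at 33.6 CPM in the WT host library. Of the 25 classes, 12 had the higher Gab1 level in Tet-TKO cells and 13 the lower, with a median log2 ratio of -0.042. The extraembryonic-like classes held 2332 of the 7142 WT host cells and 99 of the 5510 Tet-TKO cells.
Peg3 was at 579 against 382 CPM, with the ratio above 0 in 16 classes and below in 9, and Igf2r at 23.8 against 28.1 CPM, with 7 above and 18 below. The log2 ratio of Peg3 was 0.60, but 0.42 without extraembryonic-like classes and 0.11 from means over the classes. The interval lay above 0 in 10 classes and below in 6 for Peg3, and above in 1 and below in 5 for Igf2r. The log2 ratio of Igf2r was -0.24, and -0.11 without extraembryonic-like classes. It was -0.07 (-0.16 to 0.03) when cluster 29 was also left out. Plagl1 was low at this stage, at 3.48 against 2.52 CPM, from 366 and 261 UMIs, and was higher in Tet-TKO cells in 12 classes and lower in 12. Its level at E8.5 was 69.4 ± 13.8 CPM (SD, n = 4) in Tet-TKO and 18.8 ± 2.18 CPM (SD, n = 2) in WT host cells, but the cell classes of the stages differ.

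**Figure D5:**
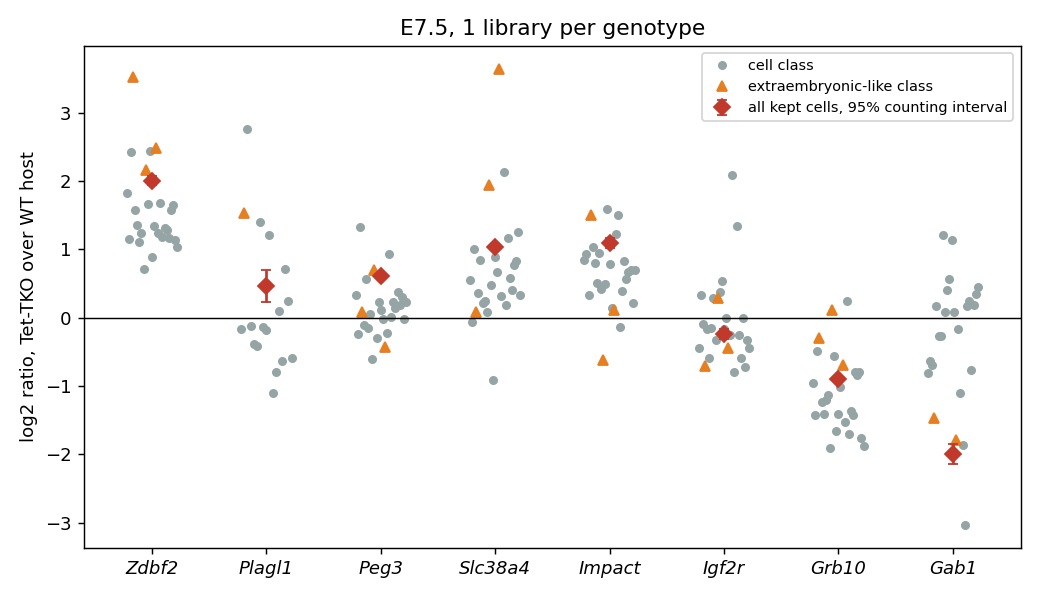
Log2 ratio of the Tet-TKO over the WT host library at E7.5 (y axis) for each gene, over all kept cells (red diamonds with 95% counting interval), in each cell class (grey points) and in extraembryonic-like classes (orange triangles). Zdbf2 lies above 0 in all 25 classes, Grb10 below 0 in 23 of 25, and Plagl1, Peg3 and Igf2r spread to both sides.

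Other imprinted genes were described from lists, by means over the 26 E8.5 classes. Of 19 other paternally expressed genes tested, 1 was called and was higher in Tet-TKO cells, and 4 were higher at an adjusted p of 0.05 (Snrpn, Ndn, Mcts2 and Nnat) with none lower. Their median log2 difference was 0.45, where that of all genes was 0.01. The called gene was Snrpn, a splicing factor gene of the Prader-Willi domain, at 218, 195, 236 and 272 CPM against 92.6 and 79.1 CPM (log2 difference 1.41, SE 0.14, adjusted p = 0.00892, limma). Of 18 other maternally expressed genes, 2 were called and both were lower, and Blcap was also lower at an adjusted p of 0.05, with a median over the list of -0.12. Asb4 was at 10.2, 9.0, 6.95 and 7.41 CPM against 44.1 and 46.1 CPM (log2 difference -2.31, adjusted p = 0.00224, limma), and H13, a signal peptide peptidase whose intron holds the paternally expressed Mcts2, at 21.7, 22.4, 24.9 and 23.1 CPM against 59.6 and 60.5 CPM (log2 difference -1.35, adjusted p = 0.00178, limma). Over all genes of this fit, 0.431% were called and 1.87% passed an adjusted p of 0.05.
Over all kept cells, where more genes could be tested, the same lists gave other counts. Of 24 paternally expressed genes 3 were called, all higher (Snrpn, Ndn and Magel2), with 7 higher and 1 lower (Sfmbt2) at 0.05 and a median log2 fold change of 0.60. Of 30 maternally expressed genes 2 were called, both lower (Asb4 and H13), with 3 higher (Mirg, Osbpl5 and Dcn) and 2 lower at 0.05 and a median of 0.05. All genes of that fit had 2.65% called and 10.5% at 0.05 (edgeR).
Of 11 neighbours of the members' own loci that could be tested, none was called, and 1, Eef1b2 beside Zdbf2, was higher at an adjusted p of 0.05. Of 13 genes that maintain imprints or DNA methylation, none was called by either threshold, and their differences lay between -0.27 and 0.24. Of 20 genes of the insulin and IGF axis, in which Igf2r and Grb10 act, none was called and 1, Igfbp4, was lower at an adjusted p of 0.05. Of 11 genes of the GCN2 pathway and amino acid transport, to which Impact and Slc38a4 relate, none was called and 1, the glutamine transporter gene Slc1a5, was lower at that threshold. The genes of these and the preceding lists that passed only at 0.05, on either scale, were named after their values had been seen. The medians of these 4 lists were 0.06, 0.09, 0.11 and 0.06, and 3, 0, 2 and 1 of their genes had an unadjusted p under 0.05, where 12.3% of all genes did (limma). Over all kept cells the counts differed here too. Of 15 genes that maintain imprints or DNA methylation 0 were called and 2 passed an adjusted p of 0.05, Dppa3 higher (log2 fold change 1.87) and Dnmt3l lower (-3.95). Dppa3 was a leading gene of the E8.5 primordial germ cell-like class. That class held 72, 67, 19 and 8 cells in the Tet-TKO libraries and 19 and 4 in the WT host libraries. Sums over all kept cells follow the make-up of the cells, whose part in these 2 changes was not tested. Of 18 genes of the GCN2 pathway and amino acid transport Slc1a5 was called lower and 5 were lower at 0.05, with a median of -0.19 and none higher. Of 22 neighbours 0 were called, with 3 higher and 2 lower at 0.05, and of 22 genes of the insulin and IGF axis 0 were called and Igf2 was higher at 0.05 (edgeR). An unadjusted p under 0.05 was found for 3 of the 15, 8 of the 22 and 2 of the 22 genes of the lists without a call, beside 26.7% of all genes (edgeR).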

How the data were processed

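Single-cell RNA-seq (10x 3′ v3) libraries of sorted Tet-TKO and WT host cells were analysed. The deposited values are whole UMI counts, which the authors obtained with Cell Ranger on mm10 for every gene of each barcode and did not normalise. The annotation was GRCm38.92, and the software version in the matrix header is 3.1.0, another than the one in the methods. How reads shared with near-identical genes were counted was not examined.

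The filter of the methods was applied to cells (a minimum of 1500 UMIs and maxima of 30% mitochondrial and 35% ribosomal UMIs). Cells were clustered per stage with scanpy 1.11.5 on 2500 variable genes without the members, 50 principal components, a correction by 20 mutual nearest neighbours and Leiden resolution 2. A cluster was called X-like when at least 3 markers, and a majority of the class markers, were raised by a log2 fold of 1. The mean log2 fold of the markers had to be at least 1 and to lead the second class by 0.2. Clusters with more markers of another class among their 10 leading genes stayed unnamed, as did some with few UMIs. Second classes could thus be close, as in mesenchyme-like cluster 1, with 2.17 against 1.94 for extraembryonic mesoderm. The condition on a majority was set after the clusters had been seen. Other clusters keep a number. Doublets (Scrublet) were removed only as an alternative.

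UMI counts were summed per library and per class and library (at least 10 cells) and tested with edgeR 4.0.16 (filterByExpr, TMM, quasi-likelihood). Means over classes were tested on log2(CPM + 1) with limma 3.58.1, in genes with a mean of at least 5 CPM. Calls required a Benjamini-Hochberg adjusted p of 0.01, over all genes of a fit, and an absolute log2 change of 1. Variation over classes was tested by the class by genotype terms in a fit with library and class. All members are named throughout. For each, the 3 genes with the most similar WT pattern are named, and of each list the genes called by means over classes, at most 3. Other genes of the lists were named outside this rule, after their values had been seen. The members, the lists and the tests were chosen with earlier results of these data known. Alternatives were DESeq2 1.42.0, other filters, scalings, thresholds and cells, each library left out, a replicate block and other clusterings. The tests were checked on simulated counts with log2 changes of 2, where 98.2% to 100% of changed genes were recovered with 0 to 14 false calls. Only genes well above the filter were changed there. Smaller changes, such as most of those of the members, were not tried. Sums were drawn independently there, so the check did not cover the likeness of Tet-TKO libraries 1 and 2 and of 3 and 4.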

Additional observations from a re-analysis of the deposited data

Results flagged for a closer look

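For 4 members the genotype difference at E8.5 varied between cell classes by the test of the class by genotype terms, over 26 classes (edgeR). Of all genes tested, 9.76% did so too, and the share with a library left out is not given here. For Zdbf2 (adjusted p = 0.00194) the log2 fold change was 1.97 in haematoendothelial progenitor-like and 0.62 in mesenchyme-like cells. For Peg3 (adjusted p = 0.000701) it was 1.54 in cluster 10 and 0.01 in NMP and caudal epiblast-like cells. For Grb10 (adjusted p = 0.000269) it was -0.96 in NMP and caudal epiblast-like cells and 0.47 in cluster 11. For Igf2r (adjusted p = 0.000137) it was 0.99 in endothelium-like and -0.20 in gut-like cells. With WT host library 1 left out 1 member passed, and with WT host library 2 left out 0 did. By Dixon's criterion on the 4 Tet-TKO libraries 0 of 16 sets of E8.5 member levels were singled out, but with libraries in like pairs this criterion could hardly single out 1, so it says nothing about how alike they are.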

How the results depend on the processing

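Over all kept cells, 2 members were called. The number was 4 with DESeq2, 7 at an adjusted p of 0.05 without a minimum fold, 0 when each pair of like Tet-TKO libraries was summed, and 0 to 3 with single libraries left out. By means over classes 0 members were called, 1 with the replicate block, 0 with any library left out, and 5 at an adjusted p of 0.05 without a minimum (3 at Leiden resolution 1, with at least 30 cells per sum or without a filter, and 8 without Tet-TKO libraries 1 and 2). Over classes, 25 pairs of a member and a class were called, 44 with DESeq2, 60 without a filter on low counts, 51 with the replicate block, 63 at an adjusted p of 0.05 without a minimum fold, and 6 to 27 with single libraries left out, 8 and 6 without WT host library 1 or 2. The number of members whose difference varied over classes was 4, and 0 to 5 with single libraries left out. Leaving out pairs of like libraries, and at E7.5 the unnamed cluster nearest to visceral endoderm, was added after the data had been seen. Without Tet-TKO libraries 3 and 4 the means over classes gave 1 called member and the classes 43 pairs, and without libraries 1 and 2 the 3 counts were 4, 3 and 60. At an adjusted p of 0.05 without a minimum, 10.5% of all genes passed over all kept cells (edgeR). By means over classes 1.87% of all genes did (limma), and over classes 1.43% of all pairs (edgeR). The shares of all genes called under the other settings are not given, here or above. Those counts alone therefore do not set the members apart from other genes. Where fewer libraries remain the spread is estimated from fewer samples. The cause of the other changes was not tested.
The sign of the log2 difference by means over classes turned for Gab1 only, from 0.12 to -0.20 with the replicate block and -0.18 without Tet-TKO libraries 3 and 4, with a range of -0.053 to 0.26 over single libraries left out. These are 3 of 144 values of single members by means over classes. Of 136 values over all kept cells, 0 changed sign. At E7.5, 16 of 32 values moved beyond their counting interval and none changed sign. Whether the replicate numbers pair the libraries is not known. Deviations of libraries with number 1 correlated at 0.48 and those with number 2 at -0.24 over 9504 genes, but the deviations of 2 WT host libraries mirror each other, so these values cannot settle it, and the block is given only here.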
